A study of Rattus norvegicus with 2 samples.

Results

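The genes described here encode the enzymes that cut, trim and amidate peptide hormone precursors, together with an inhibitor of one of them. They were chosen by gene symbol, not by a measured value, as Pcsk1, Pcsk2, Pcsk1n, Furin, Pcsk5, Pcsk6, Pcsk7, Cpe, Cpd and Pam. Of these 10 genes 9 were read, by 14 of the 31042 probe sets on the array that are not controls, each of which names 1 of these genes and no other. No probe set used here names Pcsk1, so that prohormone convertase 1/3 is not analysed here. The tissue was the left adrenal medulla of adult male Sprague-Dawley rats that carried jugular and carotid catheters. The 2RH30 rats had antecedent recurrent hypoglycemia (RH) from intraperitoneal regular human insulin at 2 IU/kg, given 2 times per day over 3 days (1 injection on the last of these days, according to the methods of the study), and the 2RS30 rats had saline on the same schedule. After an overnight fast, rats of both groups went through an insulin clamp on day 4 that held glucose at 40 to 50 mg/dL by the sample labels, and tissue was taken 30 min after the target was reached. Both groups were therefore hypoglycemic when sampled and differed in their antecedent treatment, and rats before or without a clamp were not analysed here. RNA from 6 rats per group was pooled onto 1 Affymetrix array of the rat genome, which reads a gene through probe sets of short oligonucleotides. With 1 array per group there is no replicate and no test, so each difference below is between 2 pools and carries no p-value and no error between animals.

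Chromaffin cells of the adrenal medulla store catecholamines in dense-core granules together with neuropeptides and granins. Most neuropeptides are made as long precursors that are cut after pairs of basic residues by the subtilisin-like prohormone convertases. The basic residues left at the new end are then removed by a carboxypeptidase, and an exposed glycine can be turned into a C-terminal amide by peptidylglycine alpha-amidating monooxygenase. Prohormone convertases 1/3 and 2 and carboxypeptidase E act in maturing granules, whereas furin, the convertase encoded by Pcsk7 and carboxypeptidase D act mainly in the trans-Golgi network and nearby compartments and serve most cell types.

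All values are on the log2 scale as deposited, and a difference is the value of 2RH30 minus that of 2RS30. Values were spread more narrowly on the 2RS30 array (SD 1.28 over probe sets) than on the 2RH30 array (SD 1.57), and differences were larger at higher levels, their median being -0.38 in the lowest of 20 level bins and 0.49 in the highest. Each difference is therefore also given after this trend with level was subtracted, and is then called level-adjusted. The bioB, bioC and bioD controls, transcripts added to the hybridization, differed by -3.25, -2.63 and -1.74 in the mean, and the brightest such control, cre, by -0.51. These controls were set aside before the trend was fitted and go against it at high levels, so the adjustment does not address them. With 1 array per group, a technical gap between the arrays cannot be told apart from the treatment. A probe set is called dim where it lies below the median of its array on both arrays. As a yardstick, the within-gene SD, taken from the differences of the 2 brightest probe sets of each gene, was 0.85 below a mean level of 7 and 0.61 from 7 upwards among probe sets that are not dim, and 0.67 among dim ones. This SD contains no spread between animals or pools, and was exceeded by 35.2% of the 20826 probe sets that name 1 gene (31.4% level-adjusted).

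Most of the processing enzymes had slightly higher values in 2RH30 as deposited. Of the 14 probe sets 11 were above 0, against 51.0% of all probe sets, and 8 were when level-adjusted, against 50.1%. A single probe set was 2-fold or more higher in 2RH30, one of Cpd, against a background of 10.4% of all probe sets on the array. Another was 2-fold or more lower, a dim one of Pam, against 12.1%. Level-adjusted, 1 was still higher (background 8.99%) and 0 were lower (background 10.2%). At 1.5-fold, 6 of 14 were higher, against 22.8% of all probe sets, and 1 was lower, against 23.1%. Level-adjusted, 3 were 1.5-fold or more higher (background 20.6%) and 1 lower (background 21.3%). The within-gene SD was exceeded by 4 of the 14, and by 2 when level-adjusted.

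**Figure D1:**
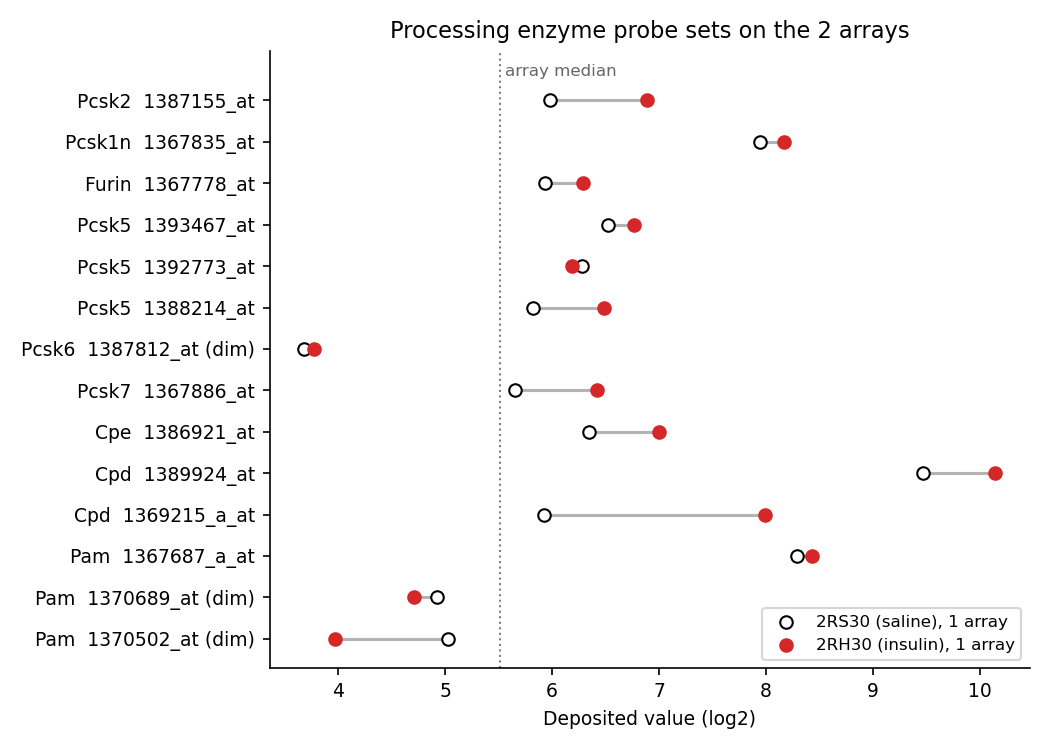
Deposited value (log2, horizontal axis) of each of the 14 probe sets (vertical axis, grouped by gene) on the 2RS30 array (open) and the 2RH30 array (filled), with 1 array of pooled RNA per group. The widest gap is that of a Cpd probe set, from 5.93 to 7.99, and 3 probe sets are dim, those of Pcsk6 and 2 of Pam.

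Pcsk2 encodes prohormone convertase 2, which releases peptides such as the enkephalins from proenkephalin inside the granule. Its probe set (1387155_at) read 5.98 in 2RS30 and 6.89 in 2RH30. The 2RH30 pool was higher by 0.91, or 1.88-fold, which is 1.07 times the within-gene SD at this level. Level-adjusted the difference was 0.68, or 0.81 times that SD. Among the 1000 probe sets closest in level, 76.8% had a smaller difference in size. Pcsk2 had the largest difference among the 9 genes when each was read from its brightest probe set, and it remained below 2-fold.

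Pcsk1n encodes proSAAS, a granule protein that inhibits prohormone convertase 1/3. Its probe set (1367835_at) read 7.94 in 2RS30 and 8.16 in 2RH30. The difference was 0.22 as deposited and -0.24 when level-adjusted, so that its direction depended on the adjustment. Both values were smaller than the within-gene SD, at 0.36 and 0.38 times it. Prohormone convertase 1/3 itself was not read, and the inhibitor cannot be set beside its target.

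Furin and Pcsk7 encode convertases of the trans-Golgi network that cut growth factors, receptors and other secreted proteins in most cell types. The Furin probe set (1367778_at) read 5.94 in 2RS30 and 6.29 in 2RH30, so that the difference was 0.36, and 0.17 when level-adjusted. The Pcsk7 probe set (1367886_at) read 5.65 in 2RS30 and 6.42 in 2RH30, so that the difference was 0.77, or 1.70-fold, and 0.59 when level-adjusted. Furin lay well inside the within-gene SD, at 0.42 times it, and Pcsk7 just inside it, at 0.91 times. Of the 1000 probe sets closest in level to that of Pcsk7, 67.9% had a smaller difference in size, and of those closest to Furin 38.7%.

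Pcsk5 and Pcsk6 encode convertases that act along the secretory pathway or at the cell surface, on growth factors of the TGF-beta family among others. Pcsk5 was read by 3 probe sets, none of them dim. The brightest (1393467_at) read 6.52 in 2RS30 and 6.76 in 2RH30, the second (1392773_at) 6.28 and 6.18, and the third (1388214_at) 5.82 and 6.48. Their differences of 0.24, -0.10 and 0.66 did not share a direction (level-adjusted -0.02, -0.30 and 0.46). The range of 0.75 between them was larger than that of 22.9% of the 1036 genes with 3 probe sets. The single probe set of Pcsk6 (1387812_at) was dim, at 3.68 in 2RS30 and 3.77 in 2RH30, close to the 5th percentile of the 2RS30 array (3.67). Its difference of 0.09 became 0.54 when level-adjusted, and at this level a value cannot be separated from the low end of the array.

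Cpe encodes carboxypeptidase E, the granule enzyme that removes the basic residues left by the convertases. Its probe set (1386921_at) read 6.35 in 2RS30 and 6.996 in 2RH30. The difference of 0.65, or 1.57-fold, was 0.77 times the within-gene SD, and level-adjusted it was 0.38. Cpe and Pcsk2 both read higher in 2RH30 as deposited and when level-adjusted, each by less than 2-fold, whereas Pam, the amidating enzyme of the granule, did so only as deposited in its brightest probe set.

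The promoters of 2 of these genes are shown. Pcsk2 had the largest difference of a brightest probe set, and Cpe acts on the same precursors. A further reason is that the unfolded protein response (UPR), which the study discusses, and the cAMP pathway have known promoter elements. RefSeq windows of 300 bases (250 before the transcription start and 50 from it on, GRCr8 assembly) were found for Cpe, Pam, Pcsk1n, Pcsk2, Pcsk5, Pcsk6 and Pcsk7 and were not found for Cpd, Furin and Pcsk1. The Cpe window is chr16:29796457-29796756 on the plus strand, with the letters TGACGTGG in capitals, which match the UPR element and begin 173 bases before the start. The Pcsk2 window is chr3:151333688-151333987 on the plus strand, with CGTCA in capitals, the reverse complement of TGACG, the core of the cAMP response element (CRE), which begins 57 bases before the start.
Cpe: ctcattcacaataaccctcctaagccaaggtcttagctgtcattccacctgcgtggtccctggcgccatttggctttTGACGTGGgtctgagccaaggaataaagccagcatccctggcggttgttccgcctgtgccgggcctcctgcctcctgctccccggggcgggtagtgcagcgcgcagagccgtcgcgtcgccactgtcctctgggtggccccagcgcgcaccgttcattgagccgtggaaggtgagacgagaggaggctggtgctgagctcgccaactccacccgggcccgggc
Pcsk2: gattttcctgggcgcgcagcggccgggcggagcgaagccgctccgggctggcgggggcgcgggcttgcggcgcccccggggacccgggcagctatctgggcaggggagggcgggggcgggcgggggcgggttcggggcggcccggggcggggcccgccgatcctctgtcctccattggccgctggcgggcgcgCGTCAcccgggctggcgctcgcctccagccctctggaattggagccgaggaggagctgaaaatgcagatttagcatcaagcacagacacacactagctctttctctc
On either strand, TGACGTGG was found in 1 of the 7 windows, that of Cpe, and in 0.595% of all 33469 windows of this length. The CRE core TGACG, which is contained in TGACGTGG, was found in the windows of Cpe, Pam and Pcsk2 and in 21.2% of all windows. The full CRE, TGACGTCA, was found in 0 of the 7 and in 1.83% of all. The ER stress element ERSE was found in 0 of the 7 and in 0.0657% of all. The GC box GGGCGG was found in 6 of the 7, all but Pcsk7, and in 33.1% of all, and the member windows had a median GC content of 68.3% against 51.7% over all windows. Also searched were the EGR1 motif GCGTGGGCG and TATAAA, each found in 0 of the 7, and in 0.544% and 14.2% of all windows. CCAAT was found in 2 of the 7, Pcsk2 and Pcsk7, and in 37.5% of all. These are matches of letters, and no binding was measured.

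Cpd encodes carboxypeptidase D, a membrane enzyme of the trans-Golgi network with the same specificity. Its brighter probe set (1389924_at) read 9.46 in 2RS30 and 10.14 in 2RH30, which is 0.68 higher, or 0.15 when level-adjusted. Its other probe set (1369215_a_at) read 5.93 in 2RS30 and 7.99 in 2RH30. This difference of 2.06, or 4.17-fold, was 2.43 times the within-gene SD and was 1.75 when level-adjusted. Of the 1000 probe sets closest in level 99.1% had a smaller difference in size. Both probe sets were higher in 2RH30, but by 1.60-fold in one and 4.17-fold in the other, and the gap of 1.38 between them was larger than that of 79.1% of the 3061 genes with 2 probe sets. The suffix of the second probe set marks probes shared by several transcripts of the gene. What accounts for the gap was not tested.

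Pam encodes the amidating monooxygenase, a copper enzyme found in granules in membrane-bound and soluble forms that arise by splicing. Its brightest probe set (1367687_a_at) read 8.29 in 2RS30 and 8.43 in 2RH30. The difference was 0.13 as deposited and -0.35 level-adjusted. The other probe sets were both dim, at 4.92 in 2RS30 and 4.71 in 2RH30 (1370689_at) and at 5.03 and 3.97 (1370502_at). Their differences were -0.21 and -1.06, and level-adjusted -0.03 and -0.75. The probe set that is 2-fold or more lower as deposited is thus one that lies below the median of both arrays, and it was below 2-fold when level-adjusted. Averaged over its 3 probe sets the gene had a difference of -0.38 in both forms, the opposite sign to the brightest probe set as deposited. The range of 1.195 between its probe sets was larger than that of 47.8% of genes with 3.

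**Figure D2:**
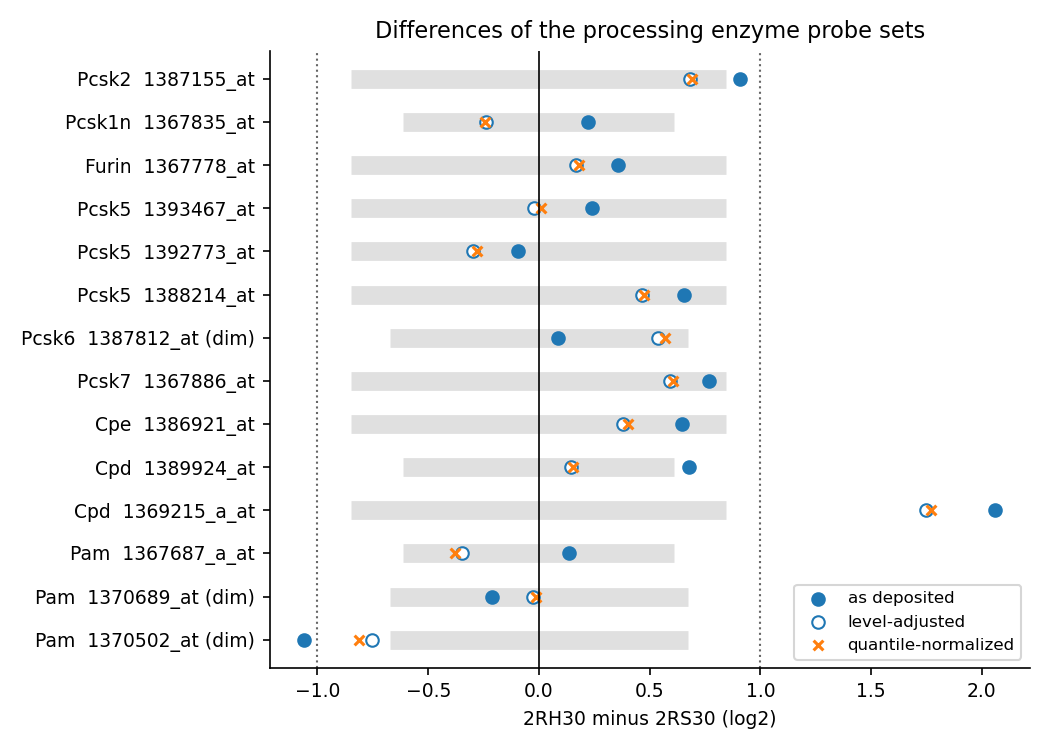
Difference of 2RH30 minus 2RS30 (log2, horizontal axis) for each of the 14 probe sets (vertical axis), as deposited (filled circles), level-adjusted (open circles) and after quantile normalization of the 2 arrays (crosses). Grey bars span the within-gene SD to either side of 0, and dotted lines mark 2-fold. A Cpd probe set lies beyond 2-fold in all forms, and a Pam probe set only as deposited.

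Read from the brightest probe set of each gene, 9 of 9 genes were above 0 as deposited, against 56.1% of all 14217 genes and 63.9% of the 9869 genes whose brightest probe set is not dim. Their median was 0.36, against 0.11 over all genes and 0.26 over those not dim. Level-adjusted, 6 of 9 were above 0 (51.2% of all genes) and their median was 0.17 (0.017 over all genes). Pcsk1n, Pcsk5 and Pam were the genes below 0 in that form. Pcsk2, Pcsk7, Cpe, Furin, Cpd and Pcsk6 were above 0 in both forms. None of the 9 genes was 2-fold higher or lower in this reading, where 11.5% of all genes were higher and 9.62% lower.

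**Figure D3:**
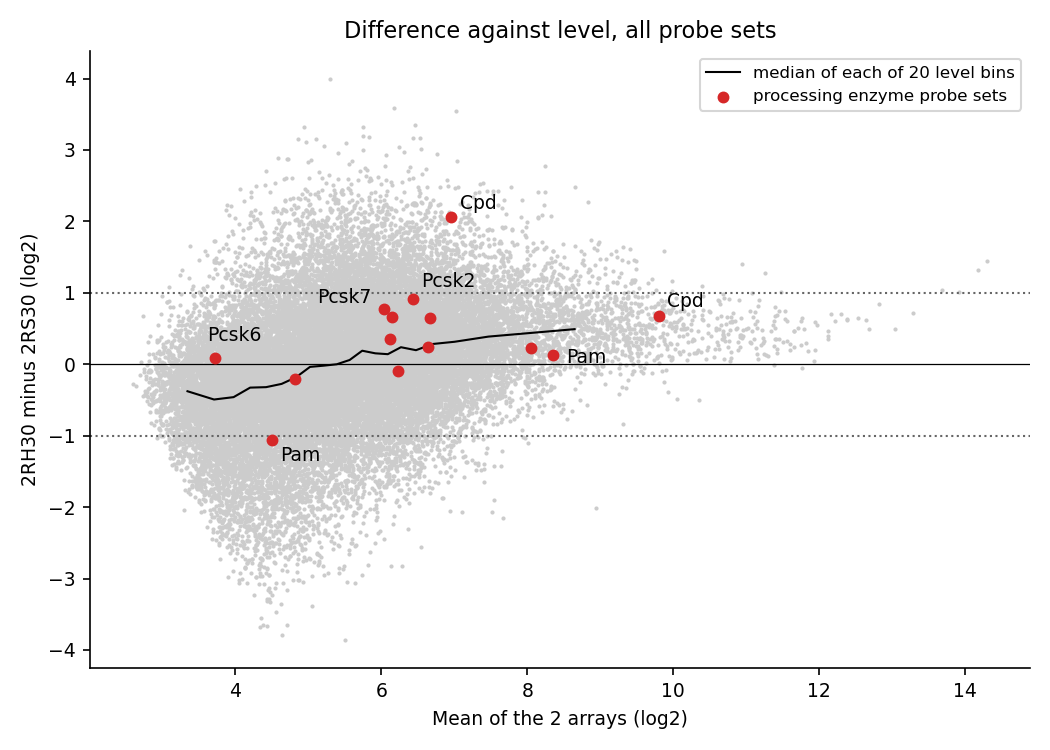
Difference of 2RH30 minus 2RS30 (log2, vertical axis) against mean level over both arrays (log2, horizontal axis), shown for all of the 31042 probe sets (grey), with the 14 probe sets of the processing enzymes in red and the median of each of 20 level bins as a line. Dotted lines mark 2-fold. The bright Pam probe set lies below the line and the Pcsk2 and Pcsk7 probe sets above it.

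Other genes of peptide processing and of granules, listed here as processing partners, were compared next, among them further proteases and carboxypeptidases. Of 28 listed processing partners 27 were measured, and 21 of them were above 0 as deposited and 19 level-adjusted. Their median was 0.43 (level-adjusted 0.26). In this list 5 genes were 2-fold or more higher in 2RH30 and 2 were lower, as deposited and level-adjusted, where 11.5% and 9.62% of all genes were as deposited and 8.95% and 9.31% level-adjusted. Scg5 encodes 7B2, the chaperone and inhibitor of prohormone convertase 2. Scg5 read 6.89 in 2RS30 and 6.47 in 2RH30, with a difference of -0.42, or -0.69 when level-adjusted. Pcsk2 read higher in 2RH30 and Scg5 lower in both forms, and each difference was below the within-gene SD of 0.85 except that of Pcsk2 as deposited. Qpct encodes glutaminyl cyclase, which forms the N-terminal pyroglutamate of peptides such as neurotensin. Qpct read 5.81 in 2RS30 and 2.88 in 2RH30 in its 1 probe set, and the difference was -2.93 (level-adjusted -2.57). The 2RH30 value is below 3.16, the 5th percentile of its array, so that the size of this difference is uncertain.

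Of the other partners, Ctsl, which encodes cathepsin L, a protease also proposed to cut proenkephalin, had differences of 0.74 and -0.11 in its 2 probe sets (level-adjusted 0.48 and -0.24). Scg3, a granin of granule biogenesis, differed by 0.32 (level-adjusted 0.12). Mbtps1, the subtilisin-like site-1 protease that cleaves ATF6 and SREBP, read 6.53 in 2RS30 and 6.79 in 2RH30, with a difference of 0.26, or -0.0071 when level-adjusted. Tpst2, which sulfates tyrosines of secreted peptides, read 4.56 in 2RS30 and 6.58 in 2RH30, the highest difference of the list at 2.02 (level-adjusted 1.93). The others that were 2-fold or more higher were the carboxypeptidase genes Cpn1 and Cpxm1 at 1.22 and 1.05 (level-adjusted 1.04 and 1.14), the proton pump accessory gene Atp6ap2 at 1.34 (level-adjusted 1.19), whose second probe set was at -0.52, and the dim Ica1 at 1.17 (level-adjusted 1.37). The lower gene besides Qpct was the dim Mbtps2, the site-2 protease, at -2.06 (level-adjusted -1.66). Hid1, of dense-core granule maturation, had differences of -0.62 and 0.52 in its 2 probe sets (level-adjusted -0.97 and 0.33), and Cpxm2 of -0.11 and 0.059 (level-adjusted -0.25 and 0.49).

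The precursors of peptides lay between -2.80 and 2.28, and the 9 processing enzymes, a shorter list, between 0.09 and 0.91. Of 45 listed precursors, some of them of growth factors and receptors, 41 were measured, 11 were 2-fold or more higher in 2RH30 (background 11.5% of all genes) and 5 lower (9.62%), and level-adjusted 7 and 4 (8.95% and 9.31%). The median was 0.44 (level-adjusted 0.25), against 0.36 (level-adjusted 0.17) over the processing enzymes. Several of these genes were chosen with their direction known from the study, so the counts are no independent support. Penk, which encodes proenkephalin, read 7.69 in 2RS30 and 9.97 in 2RH30, higher by 2.28 (level-adjusted 1.77). Nts, which encodes the neurotensin precursor, read 4.53 in 2RS30 and 6.67 in 2RH30, higher by 2.14 (level-adjusted 2.05). Npy, for neuropeptide Y, read 7.29 and 8.88, and Gal, for galanin, 4.74 and 6.08, differences of 1.59 and 1.34 (level-adjusted 1.13 and 1.30). The brightest probe sets of the processing enzymes went up to 0.91, and the second probe set of Cpd was at 2.06. These 4 precursors were named with their direction known from the study, so setting them against the enzymes is no test. The study gave that direction for rats sampled before the clamp, not for the comparison made here. Neuropeptide Y is amidated, as galanin is in the rat, and the brightest probe set of Pam differed by 0.13 (level-adjusted -0.35).

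Among the other precursors, Pomc, the precursor of ACTH and beta-endorphin, differed by 1.32 (level-adjusted 1.26) and Vgf, whose product is cut into several peptides, by 0.74 (level-adjusted 0.63). Adm, for the amidated peptide adrenomedullin, differed by 0.37 (level-adjusted 0.19). The granins Chga, Chgb and Scg2, which are also convertase substrates, differed by 0.88, 0.65 and 0.44 (level-adjusted 0.36, 0.09 and 0.25). The lowest genes of the list that were not dim were the apelin gene Apln at -2.80 (level-adjusted -2.95), the neurotrophin gene Bdnf at -1.92 (level-adjusted -1.94), the somatostatin gene Sst at -0.91 (level-adjusted -0.83) and the neuromedin B gene Nmb at -0.54 (level-adjusted -0.75). Of these, Apln was lower in its other probe set as well, at -1.87 (level-adjusted -1.68), whereas that of Bdnf was at -0.16 (level-adjusted 0.28). The remaining genes that were 2-fold or more lower were the dim Adcyap1 (PACAP), Vip (vasoactive intestinal peptide) and Edn1 (endothelin 1), at -1.50, -1.10 and -1.21 (level-adjusted -1.05, -0.72 and -1.01). The second probe set of Adcyap1 was at -0.03 (level-adjusted 0.39).

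Enzymes listed here as peptide-degrading were compared as well, a list that also holds converting enzymes such as Ece1 and Ace. Of 22 listed genes 21 were measured, with 4 of them 2-fold or more higher in 2RH30 and 1 lower, where 11.5% and 9.62% of all genes were. Level-adjusted these counts were 3 and 1, where 8.95% and 9.31% of all genes were. The median was 0.43 (level-adjusted 0.17), close to that of the processing enzymes when level-adjusted. The higher genes were Ece1, the endothelin-converting enzyme, at 1.97 (level-adjusted 1.95), the prolyl endopeptidase-like gene Prepl at 1.59 (level-adjusted 1.36), Ace, the angiotensin-converting enzyme, at 1.34 (level-adjusted 1.01) and Kel at 1.03 (level-adjusted 0.98). In their other probe sets Ace and Kel went the other way, at -1.15 and -1.28 (level-adjusted -1.04 and -1.29). The lower gene was the dim Phex at -1.56 (level-adjusted -1.11). Among genes not dim, the lowest were Dpp4, which removes N-terminal dipeptides, at -0.75 (level-adjusted -0.74), the aminopeptidase genes Npepps at -0.30 (level-adjusted -0.49) and Enpep at -0.11 (level-adjusted -0.58), and Ecel1, a relative of Ece1, at -0.28 (level-adjusted -0.39). The second probe set of Ecel1 was at 0.15 (level-adjusted 0.60), and those of Dpp4 and Enpep were at -0.69 and -0.81 (level-adjusted -0.57 and -0.38). Lnpep, another aminopeptidase gene, differed by 0.43 in its brighter probe set (level-adjusted 0.0075) and by 3.997 in its second (level-adjusted 3.995).

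**Figure D4:**
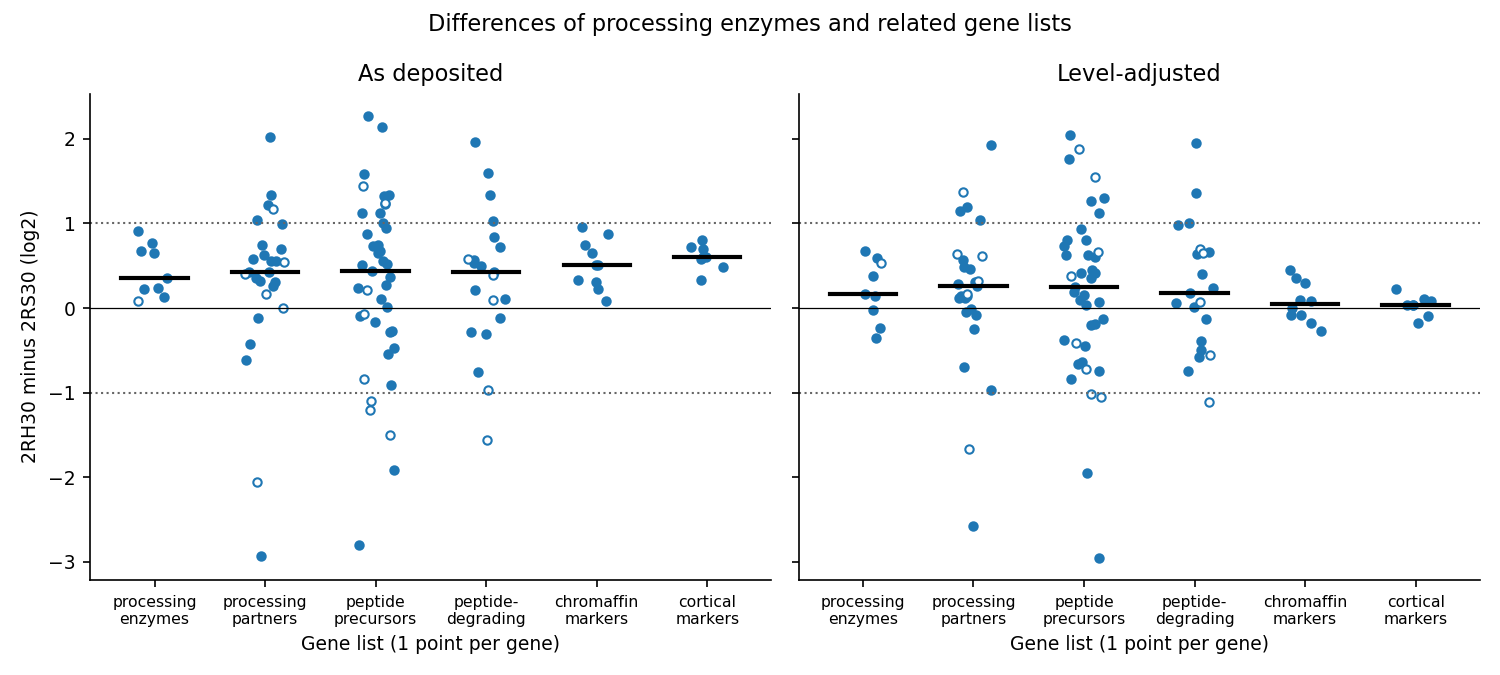
Difference of 2RH30 minus 2RS30 (log2, vertical axis) for each measured gene, read from its brightest probe set, in 6 gene lists (horizontal axis), as deposited (left) and level-adjusted (right). Filled points are not dim, open points are dim, bars are medians and dotted lines mark 2-fold. The processing enzymes lie between 0.09 and 0.91 as deposited, whereas the precursors lie between -2.80 and 2.28.

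The cell makeup of the pools touches all of these values. Chromaffin markers were present at 6.36 to 11.45 in 2RS30 and 6.62 to 11.96 in 2RH30, with 10 of 10 measured genes above 0 as deposited and 5 level-adjusted, and a median difference of 0.51 (level-adjusted 0.04). Markers of the adrenal cortex were present as well, at 8.73 to 12.92 in 2RS30 and 9.06 to 13.64 in 2RH30, so that both pools held cortical RNA. Of 8 measured cortical markers 8 were above 0 as deposited and 6 level-adjusted, with a median of 0.61 (level-adjusted 0.04). Of 7 macrophage markers 5 were above 0 in both forms. Of them 4, Cd68, C1qa, C1qb and C1qc, were 2-fold or more higher in both forms, where 11.5% of all genes were (8.95% level-adjusted). C1qa read 3.06 in 2RS30, below 3.67, the 5th percentile of that array, so that the size of its difference of 2.71 is uncertain. Csf1r and Ptprc were below 0 at -0.77 and -0.71 (level-adjusted -0.89 and -0.79). The second probe set of Ptprc was at -2.13 (level-adjusted -1.68). The markers read from 3.06 to 9.21 in 2RS30 and from 5.17 to 9.76 in 2RH30, with a median of 1.33 (level-adjusted 1.03). Of the Schwann and sustentacular list and the endothelial list 4 markers each were measured, 2 in each not dim. Their medians were 0.25 and 0.19 (level-adjusted 0.29 and 0.18). They read from 4.41 to 5.99 and 4.39 to 6.22 in 2RS30 and from 4.23 to 6.60 and 4.60 to 6.41 in 2RH30. As deposited 3 markers were above 0 in each list, and level-adjusted 4 and 2. Below 0 as deposited were the dim S100b and Pecam1, at -0.18 and -0.56 (level-adjusted 0.18 and -0.43). Mbp, at 0.61 (level-adjusted 0.40), was at -0.58 and 0.35 in its other probe sets (level-adjusted -0.14 and 0.42). Cortical, endothelial and immune cells also express convertases such as Furin, Pcsk5 and Pcsk7, and the part of these cells in the differences was not tested. In such pooled tissue, fewer cells of a type and less RNA per cell cannot be told apart.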

How the data were processed

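RNA pools of 6 rats were measured on 1 array for 2RS30 and 1 for 2RH30. The authors deposited 1 value per probe set and array, read here as log2 from its range. The submitters' notes name Affymetrix Expression Console. The methods name GCRMA in Partek and call the deposited data quantile-normalized, yet the sorted arrays are up to 1.45 apart, and their summarization is not given in the sources read. Precision is limited by the number of arrays.
Of 31099 probe sets 57 controls were set aside. The platform annotation named 1 gene for 20826, several for 436 and none for 9780, with symbols updated through RefSeq for GRCr8 (20758 matched). Genes were read from their brightest probe set, and the level trend was subtracted by lowess (fraction 0.3, 3 iterations). No test was run, and 2-fold is the fold threshold of the study, whose results also name a p-value cutoff. Calculations were tested on simulated data. Members and lists were chosen with earlier results of these data known. The text names all members, partners and precursors fixed by name, and up to 4 highest and 4 lowest genes per list that are not dim. Ica1, Mbtps2, Phex, Adcyap1, Vip, Edn1, Pdyn, Nmu, Cartpt, Insr, Grp, Nppa, Lnpep, Csf1r and Ptprc were named after their values were seen. So were Cd68, C1qa, C1qb, C1qc, S100b, Mbp and Pecam1. Alternatives were centring, quantile normalization, lowess, leaving out dim probe sets or those ending in _s_at or _x_at, other fold thresholds, and other ways to read a gene. Software was Python 3.11.15 with statsmodels 0.14.6, numpy 2.4.6, pandas 2.3.3 and matplotlib 3.10.9.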

Additional observations from a re-analysis of the deposited data

How the results depend on the processing

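Of the 14 probe sets of processing enzymes, 1 was 2-fold or more higher and 1 lower as deposited. At 1.5-fold 6 were higher, and counted as 9 genes 0 were higher and 0 lower. The lower count was 0 with quantile normalization, with lowess, without dim probe sets and at 3-fold. The median over the enzymes, 0.36, lay between 0.17 and 0.50 over all alternatives. The other medians were smaller with quantile normalization, with lowess, and with lowess and the mean over probe sets, the last chosen after seeing the data. The mean over probe sets alone made the partner, precursor and peptide-degrading medians smaller (the first 0.33), but the chromaffin median 0.5123 instead of 0.5074, and the cortical median 0.67 instead of 0.61. The partner median of 0.43 was 0.26 with lowess and 0.12 with lowess and the mean. The precursor median of 0.44 was 0.26 with quantile normalization, 0.25 with lowess, 0.23 with the mean and 0.15 with lowess and the mean. That of the peptide-degrading enzymes, 0.43, was 0.19, 0.17, 0.21 and 0.11 in that order. The chromaffin median of 0.51 was 0.094 with quantile normalization, 0.043 with lowess and 0.091 with lowess and the mean, and the cortical median of 0.61 was 0.096, 0.036 and 0.099. The cause was not tested.
Over the single enzymes, 61 of 62 values under alternatives stayed within the within-gene SD of the main value. Many of these could hardly move, so the count is no measure of robustness. No enzyme probe set ends in _s_at or _x_at, and 6 of the 9 genes have 1 probe set, whose mean is the same value. Centring moved each value by 0.017 only. The other was Cpd, at 1.37 instead of 0.68 with the mean over its probe sets. Pam changed sign under 4 of 7 alternatives (-0.38 to 0.13), Pcsk1n under 3 (-0.24 to 0.22) and Pcsk5 under 1 (-0.022 to 0.27), all from differences below 2-fold. The remaining enzymes kept their sign under every alternative run. No paired analysis was possible because 2RS30 and 2RH30 are 1 array each. Leaving out a replicate was not possible for the same reason, and log values need no pseudocount. Signal over background is not given, so how far dim probe sets can be read is unknown.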
